A study of Mus musculus with 12 samples.

Results

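The subject is the loss of CD18 in unstimulated dendritic cells: 6 of the 12 libraries of the series, chosen by their labels as the untreated ones, with 3 from CD18fl/fl bone marrow-derived dendritic cells (BMDCs, labelled Cre-) and 3 from CD18CD11c cKO BMDCs (labelled Cre+). All mice were homozygous for an Itgb2 allele with loxP sites around exon 3, made in C57BL/6N embryonic stem cells and crossed to albino B6 mice, and the cKO mice also carried Cre recombinase driven by the CD11c promoter, so that both groups hold the floxed allele and only 1 holds Cre. Bone marrow was cultured for 10 days with GM-CSF, MHCII-positive cells were isolated with magnetic beads, and poly(A)-selected RNA was sequenced. The other 6 libraries came from the same genotypes exposed for 24 h to LPS, a Toll-like receptor 4 ligand, at 100 ng/mL. Whether each replicate number is 1 mouse, and the sex and age of the mice, are not given in the sources used here. The p-values therefore measure the spread between these libraries, in the main fit after differences between replicate numbers are taken out.

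CD18, encoded by Itgb2, is the common β chain of the β2 integrins. It pairs with CD11a (Itgal) to form LFA-1, with CD11b (Itgam) to form Mac-1, with CD11c (Itgax) and with CD11d (Itgad), and these receptors let leukocytes bind ICAMs, complement fragments and fibrinogen. An α chain without its β chain is not carried to the cell surface. On ligand binding, integrins recruit talin and kindlin, form actin-rich contacts called podosomes, and signal through Src and Syk kinases, and in dendritic cells they take part in adhesion, migration and contact with T cells.

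The exon that Cre removes is shown because every comparison below rests on its loss. Exon 3 of 16 lies at chr10:77378232-77378320 (GRCm39, plus strand) and is coding over its whole length of 89 bases, which leaves a remainder of 2 on division by 3, so that a transcript without it changes reading frame.
Itgb2 exon 3: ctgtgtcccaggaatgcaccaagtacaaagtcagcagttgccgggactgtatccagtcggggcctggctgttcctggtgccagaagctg

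Total gene reads per untreated library ranged from 29689149 to 32323263. Levels are given as CPM, reads scaled to a fixed library total after TMM normalization, always in the order of replicates 1, 2 and 3, where 3 reads, the floor for a level, are worth 0.0823 to 0.12 CPM. Replicate 3 of both genotypes stood apart from replicates 1 and 2: Fscn1, an actin-bundling protein of mature dendritic cells, measured 699, 804 and 30.8 CPM in CD18fl/fl and 352, 465 and 22.7 CPM in cKO. In addition, CD18CD11c cKO replicate 3 had 37 reads of Y-linked genes against 3079 to 6987 in the other 5 untreated libraries. It had 0 reads of the Y-linked Ddx3y, Eif2s3y, Kdm5d and Uty, which all the other 5 held, and 89 reads of the X-linked Tsix against 0. Xist had 0 reads in every untreated library. Pair 3 thus differed in sex-linked transcripts as well as in genotype, and the part of sex was not tested. For this reason the main counts are also given without replicate 3. Markers of other cells were present in both genotypes. The summed level of 18 macrophage and monocyte markers ran from 14000 to 45300 CPM in CD18fl/fl and from 23400 to 80400 CPM in cKO (exact permutation test, two-sided, p = 0.8). That of 18 neutrophil markers ran from 196 to 2010 CPM in CD18fl/fl and from 146 to 527 CPM in cKO (exact p = 0.4), where the smallest p for 3 against 3 libraries is 0.1. The sum of 19 dendritic cell markers ran from 17200 to 24300 CPM and from 22100 to 34600 CPM (exact p = 0.4).

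Of 12876 genes tested with the replicate number as a block, 1555 were higher in CD18CD11c cKO BMDCs (12.1% of those tested) and 1051 were lower (8.16%), by edgeR's quasi-likelihood test at a Benjamini-Hochberg adjusted p under 0.05. Every adjusted p below comes from this test over all genes. Without replicate 3, 1943 were higher (14.9%) and 1544 lower (11.8%). The calls rest on the other pairs: without replicate 1, 837 were higher (6.4%) and 171 lower (1.31%), and without replicate 2, 386 (2.97%) and 65 (0.501%). Without the block edgeR called 0 genes (1395 higher and 764 lower at an unadjusted p under 0.05), and DESeq2 called 491 higher and 47 lower. 3 properties of the libraries move with the genotype and accompany all results. Ribosomal protein genes took 11.4%, 10.8% and 15.5% of the reads in CD18fl/fl and 19%, 15.7% and 18.8% in cKO. In addition, the TMM factor, 1 scaling value per library, was 1.09, 1.15 and 1.19 in CD18fl/fl and 0.839, 0.836 and 0.949 in cKO. Under plain library size scaling the median log2 difference over all genes was -0.46 in place of -0.07. It gave 701 genes higher and 3882 lower, so 15.3% of calls were higher in place of 59.7%. Moreover, higher genes were short, with a median exon length of 1899 bases, and lower genes were long, with 4711.5, against 3391 for all genes tested. Therefore the fit was repeated with an offset for exon length, under which 1021 of 12236 genes were higher (8.34%) and 544 lower (4.45%). The part of the ribosomal share in the genotype differences was not tested. Libraries of the genotypes did not overlap in 24.3% of genes (13.3% higher and 11% lower), which is the background for the statements on overlap below. The plot of gene lists sets the lists described below beside the values for all genes. Counts of members are to be read against the shares of all genes, 12.1% higher and 8.16% lower (8.34% and 4.45% with the length offset).

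**Figure D1:**
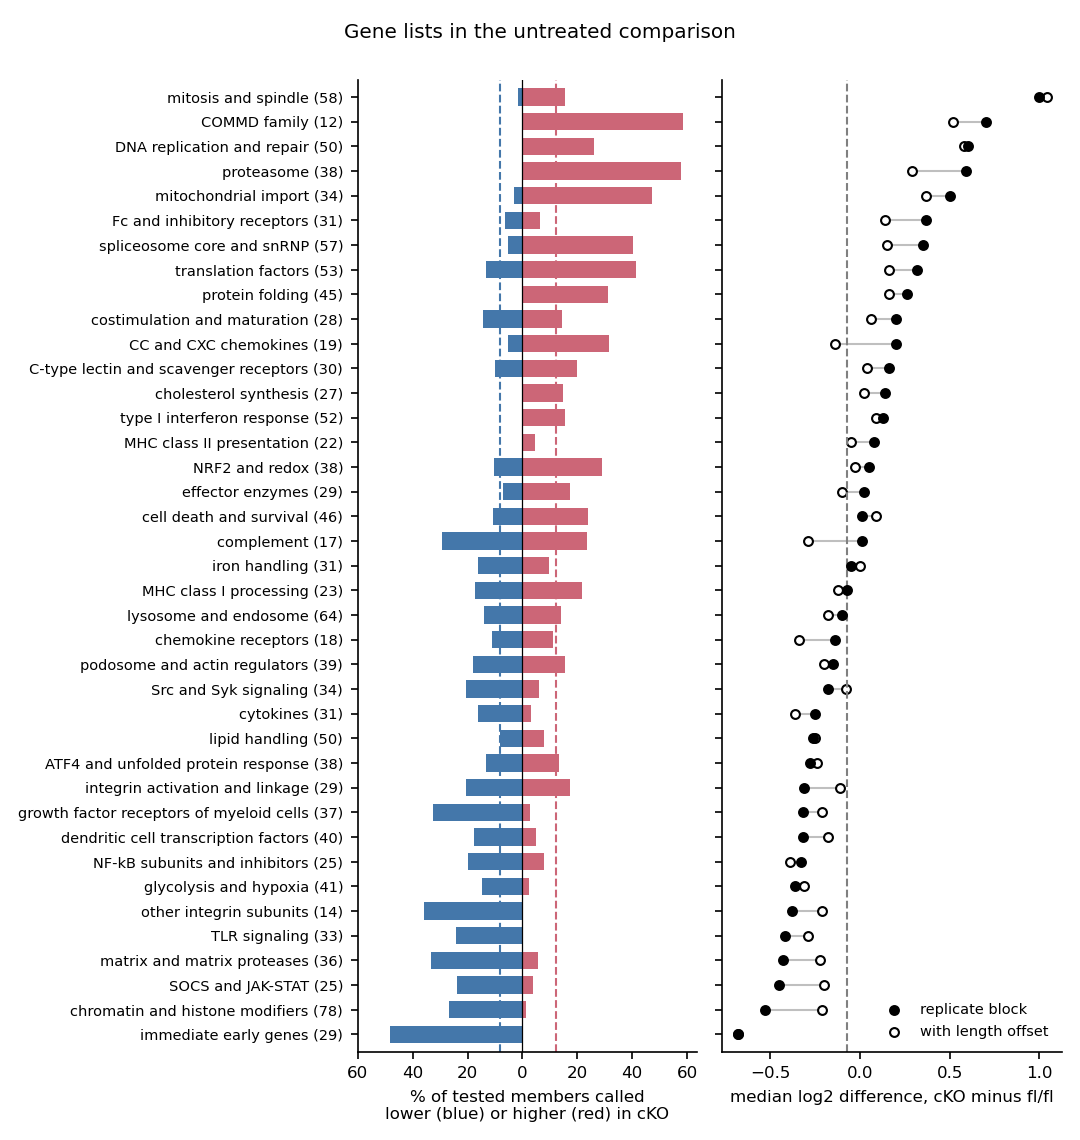
Left, percent of tested members of 39 gene lists called lower (blue, to the left) or higher (red, to the right) in untreated CD18CD11c cKO against CD18fl/fl BMDCs, with the shares among all genes as dashed lines (8.16% lower and 12.1% higher). Right, the median log2 difference of each list with the replicate block (filled) and with the added offset for exon length (open), where the dashed line is the median of all genes, -0.07. The number tested stands behind each name. Immediate early genes sit lowest at -0.68 in both fits, while the proteasome falls from 0.59 to 0.29 and chromatin modifiers move from -0.53 to -0.21 with the offset.

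Itgb2 itself was present in the cKO libraries at a reduced level. It measured 421, 460 and 401 CPM in CD18fl/fl (427 ± 29.9, SD, n = 3) and 135, 185 and 214 CPM in cKO (178 ± 40, SD, n = 3), without overlap. The log2 difference was -1.29 (SE 0.17, edgeR adjusted p = 0.00392) with the block and -1.26 (adjusted p = 0.0887) without it. Total gene reads cover the whole gene, so that transcripts without exon 3 are counted too and the level is not one of intact transcript alone. In bulk RNA, fewer cells with a transcript and less transcript per cell cannot be told apart, here and in all that follows.

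None of the 4 α chains that pair with CD18 passed the test. Itgam (CD11b) measured 560, 547 and 794 CPM in CD18fl/fl and 321, 452 and 763 CPM in cKO (log2 -0.38, SE 0.17, edgeR adjusted p = 0.158). Itgal (CD11a) measured 41.8, 49.8 and 35.7 against 25.1, 17.9 and 53.6 CPM (-0.54, SE 0.35, adjusted p = 0.296). For both, replicate 3 held the smallest fall or the opposite sign, and without replicate 3 both passed the test, with adjusted p = 0.0491 and 0.0086. Itgax (CD11c) measured 192, 230 and 479 against 159, 162 and 768 CPM (-0.04, SE 0.23, adjusted p = 0.928). The promoter of this gene drives Cre. Itgad (CD11d) measured 0.52, 0.384 and 3.14 against 2.07, 1.74 and 5.29 CPM, higher in each pair at a low level (1.6, SE 0.53, adjusted p = 0.068). It passed with DESeq2 and the block (adjusted p = 0.041) and with no filter on low counts (edgeR adjusted p = 0.0423), and over the other edgeR fits its adjusted p ran from 0.0529 to 0.855.

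Other integrin chains were lower or did not pass the test. Of 14 tested, 5 were lower and 0 higher, beside 8.16% and 12.1% of all genes, and the list's median was -0.38. With the length offset 3 were lower, and leaving out replicate 1, 2 or 3 left 2, 2 or 5. Itgb3, the β chain that with αv binds vitronectin, fibronectin and thrombospondin, fell most. It measured 21.9, 24.7 and 31.8 CPM in CD18fl/fl and 6.7, 6.77 and 12.1 CPM in cKO, where the lowest CD18fl/fl library was above the highest cKO library (-1.65, SE 0.18, edgeR adjusted p = 0.00318). Itga4, a chain of VLA-4, which binds VCAM-1, fell in each pair, from 146, 142 and 25.5 to 79.7, 80.4 and 12.4 CPM (-0.91, SE 0.14, adjusted p = 0.00622). Its replicate 3 libraries were far below the rest in both genotypes, so the groups overlapped. Itgb1, the β chain shared by most other integrins, measured 475, 351 and 234 against 414, 282 and 184 CPM and did not pass the test (adjusted p = 0.155).

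The molecules that link integrins to the cytoskeleton changed in both directions in the main fit. Of 29 tested, 5 were higher and 6 lower, beside 12.1% and 8.16% of all genes. With the length offset 5 were higher and 3 lower, and leaving out replicate 1, 2 or 3 left 1, 1 or 11 lower. Rap1a, a small GTPase that switches integrins on through talin, was higher, at 217, 191 and 204 CPM in CD18fl/fl and 404, 412 and 340 CPM in cKO (0.91, SE 0.14, edgeR adjusted p = 0.00634). Fyb (ADAP), an adaptor that couples receptor signals to integrin activation, was lower, at 56.4, 62.8 and 22.9 against 18.5, 28.2 and 11.2 CPM (-1.27, SE 0.17, adjusted p = 0.00401). The kinase adaptor Ilk was higher (0.84, adjusted p = 0.00654), whereas Parvb, its parvin partner, was lower (-1.3, adjusted p = 0.0218). Of 39 podosome and actin regulators, 6 were higher and 7 lower, and 5 and 1 with the length offset. The number of lower members was 0, 0 and 11 without replicates 1, 2 and 3. Arpc5 and Arpc3, subunits of the Arp2/3 complex that nucleates branched actin, were both higher without overlap, Arpc5 from 1240, 922 and 756 to 2570, 2280 and 1660 CPM (1.16, SE 0.15, adjusted p = 0.00368) and Arpc3 with 1.01 (adjusted p = 0.00524). Fscn1 was lower in each pair (-0.74, adjusted p = 0.0173). Among the genes of this and the preceding paragraphs, the calls of Itgb2, Itgb3, Itga4, Fyb and Arpc5 held with each of the 3 replicates left out in turn, and those of Rap1a, Ilk, Parvb, Arpc3 and Fscn1 were lost without replicate 2 (for Parvb and Fscn1 also without replicate 1).

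**Figure D2:**
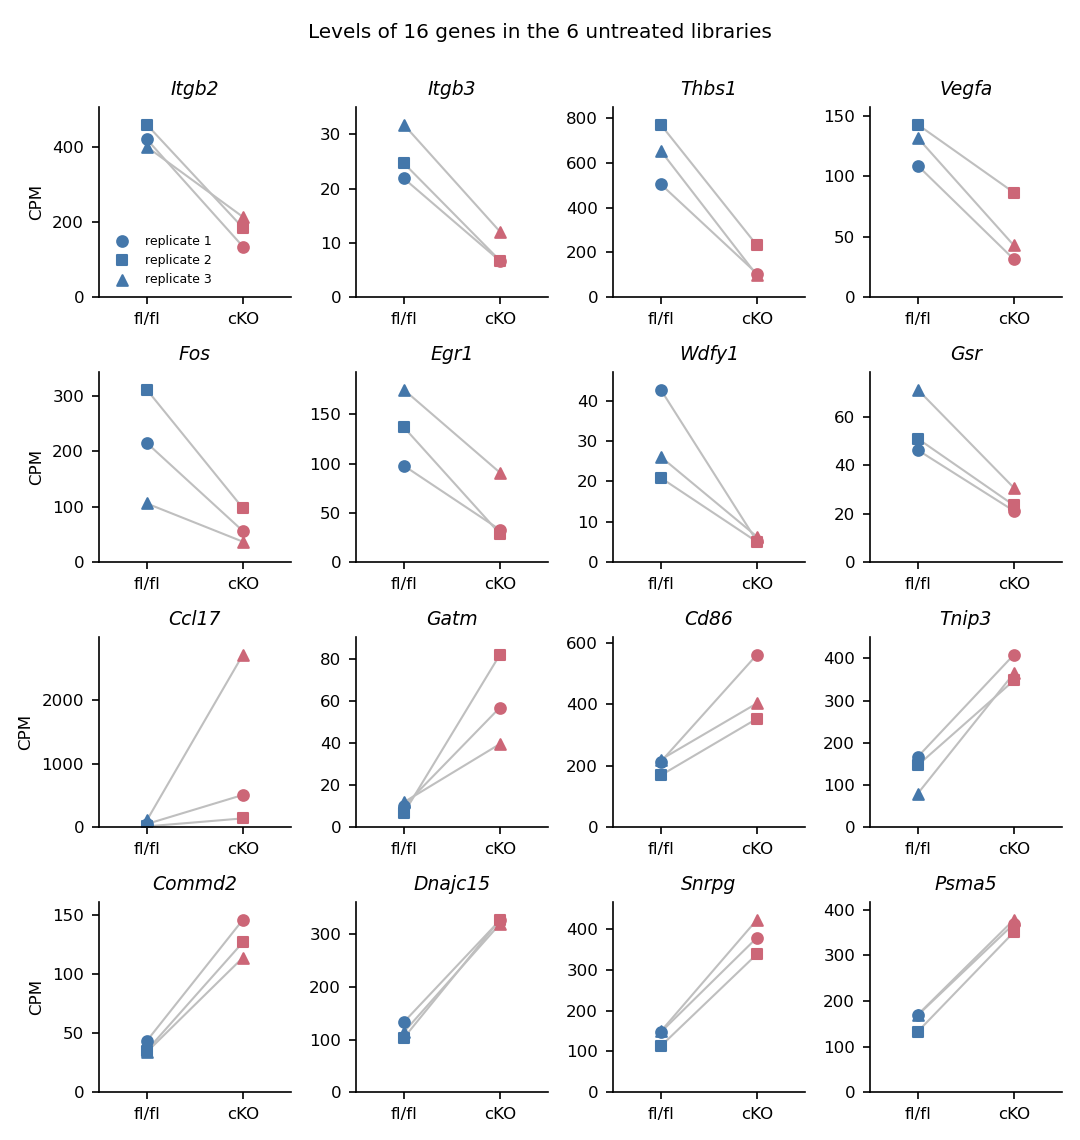
Levels of 16 genes in CPM (y axis, linear, from 0) in the 3 untreated CD18fl/fl (blue) and 3 untreated CD18CD11c cKO (red) libraries, where symbols mark the replicate number and grey lines join libraries of the same number. In all 16 panels every cKO library lies on 1 side of every CD18fl/fl library, as in Thbs1 (505 to 771 against 98.2 to 232 CPM). The 16 were picked from the genes named in the text, of which others overlap, such as Itga4 and Mmp12. Among all genes tested, 24.3% did not overlap. In Ccl17, replicate 3 of the cKO sets the scale with 2710 CPM.

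Immediate early genes, which cells transcribe within minutes of a growth factor, adhesion or Toll-like receptor signal without new protein synthesis, were lower where they passed the test. Of 29 tested, 14 were lower and 0 higher, and the median was -0.68 with and without the length offset, under which 16 were lower. Fos, a subunit of the AP-1 transcription factor, fell from 215, 311 and 106 CPM in CD18fl/fl to 56.3, 97.4 and 37.1 CPM in cKO, with no overlap (-1.71, SE 0.15, edgeR adjusted p = 0.00298). Egr1, a zinc finger transcription factor, fell from 98, 137 and 175 to 33, 28.9 and 90.9 CPM, again with no overlap (-1.58, SE 0.24, adjusted p = 0.00608). Dusp6, a phosphatase that inactivates ERK, fell from 49.5, 52.6 and 77.3 to 27.1, 24.6 and 36 CPM (-1.02, SE 0.14, adjusted p = 0.00455). In all 3 genes each cKO library was below its CD18fl/fl partner.

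The AP-1 subunits Fosb (-0.98), Fosl2 (-0.98), Jun (-0.92), Jund (-0.73) and Junb (-0.72) were lower too, as were Zfp36 (-0.9), Zfp36l2 (-0.78) and Zfp36l1 (-0.68), whose proteins bind AU-rich elements and destabilize cytokine mRNAs. Junb measured 681, 716 and 372 CPM in CD18fl/fl and 407, 456 and 217 CPM in cKO, lower in each pair (edgeR adjusted p = 0.0112). Other members did not pass the test. Egr2 measured 36.6, 50.7 and 96.2 against 37.7, 38.6 and 118 CPM (-0.02, adjusted p = 0.952), Nr4a3 gave 0.36 (adjusted p = 0.265), and Atf3 gave 0.41 (adjusted p = 0.089). The number of lower members was 8, 3 and 15 without replicates 1, 2 and 3. The calls of Fos, Egr1 and Dusp6 held in all 3 of these fits.

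**Figure D3:**
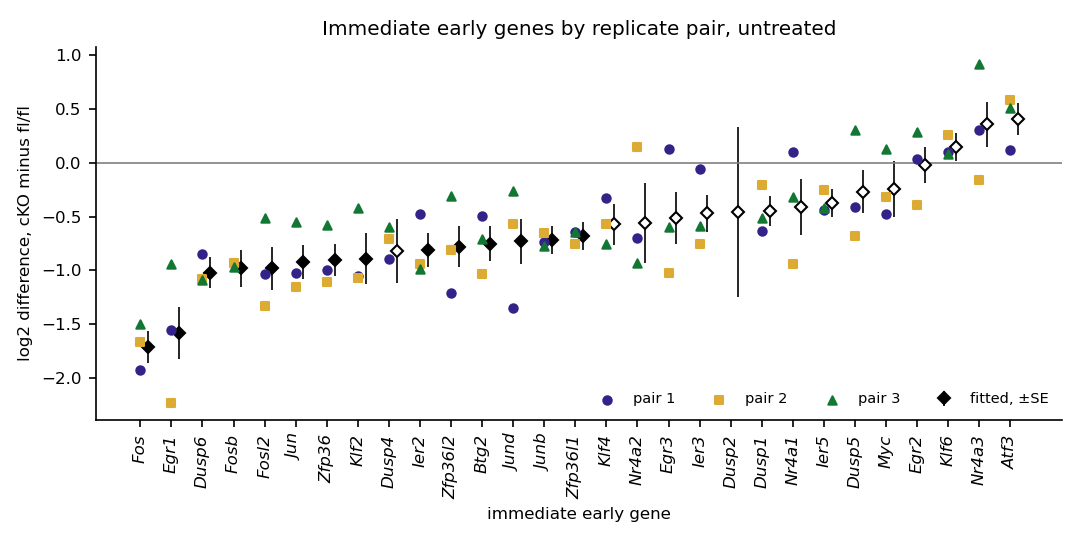
Log2 difference (y axis, cKO minus CD18fl/fl, untreated) of 29 immediate early genes (x axis) in each replicate pair, computed from CPM plus 0.5, beside the fitted value ± SE (diamonds, filled where the gene was called). Dusp2, with under 1 CPM in replicate 3, has no pair points. The 14 called genes lie below 0 in all 3 pairs, from -1.71 in Fos to -0.68 in Zfp36l1, while Atf3 and Nr4a3 have positive fitted values.

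Immediate early promoters are known for the serum response element, whose core is the CArG box, and for the cAMP response element (CRE, searched as TGACGTCA, which reads the same on both strands). In the 250 bases before the start in the RefSeq promoter table, a CArG box occurred in 1.62% of 27025 genes and the CRE in 1.77%. Of the 14 lower members 11 had a promoter there, with 1 CArG box and 1 CRE. Egr1 was not among these 11, and sites further than 250 bases from the start were not searched. Of the 15 members not called 12 had one, with 2 and 1. The motifs therefore occurred in members that fell and in members that were not called, and a match describes the letters, not a bound site. The promoters below are shown to compare these: Zfp36 and Btg2 were lower, Dusp5 and Dusp1 were not called. Capitals mark the CArG boxes in the first pair of lines and the CRE in the second. Positions are exact matches of the RefSeq sequence in GRCm39.
Zfp36 (chr7:28078654-28078903, minus strand): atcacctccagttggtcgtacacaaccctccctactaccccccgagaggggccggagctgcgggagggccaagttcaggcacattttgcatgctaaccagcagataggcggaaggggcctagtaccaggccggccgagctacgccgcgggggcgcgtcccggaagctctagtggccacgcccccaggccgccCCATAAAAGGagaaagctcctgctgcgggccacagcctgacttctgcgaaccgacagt
Dusp5 (chr19:53517326-53517575, plus strand): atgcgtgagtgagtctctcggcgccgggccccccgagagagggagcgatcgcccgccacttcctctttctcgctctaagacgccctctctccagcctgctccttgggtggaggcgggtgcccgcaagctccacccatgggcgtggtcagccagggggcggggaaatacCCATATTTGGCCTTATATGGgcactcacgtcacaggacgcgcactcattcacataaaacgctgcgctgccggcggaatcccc
Btg2 (chr1:134006894-134007143, minus strand): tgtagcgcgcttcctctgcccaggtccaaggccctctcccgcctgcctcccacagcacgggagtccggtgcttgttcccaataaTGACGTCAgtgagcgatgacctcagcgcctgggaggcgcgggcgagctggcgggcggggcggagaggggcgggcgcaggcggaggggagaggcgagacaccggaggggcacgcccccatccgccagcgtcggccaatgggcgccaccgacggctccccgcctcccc
Dusp1 (chr17:26727447-26727696, minus strand): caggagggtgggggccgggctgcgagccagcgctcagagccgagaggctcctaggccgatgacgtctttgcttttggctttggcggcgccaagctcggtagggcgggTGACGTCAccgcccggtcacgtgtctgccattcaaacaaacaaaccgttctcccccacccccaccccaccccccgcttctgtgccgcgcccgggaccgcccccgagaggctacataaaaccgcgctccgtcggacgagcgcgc
Of these 4, Zfp36 measured 347, 465 and 203 CPM in CD18fl/fl and 174, 215 and 136 CPM in cKO (edgeR adjusted p = 0.00901), and Btg2, an anti-proliferative gene, 103, 111 and 63.4 against 72.9, 53.8 and 38.5 CPM (-0.75, adjusted p = 0.0177). Dusp5 measured 161, 162 and 34.3 against 121, 101 and 42.5 CPM (-0.27, adjusted p = 0.379). Dusp1 measured 238, 213 and 53.2 against 154, 184 and 37.3 CPM (-0.45, adjusted p = 0.0633).

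Of 36 secreted matrix proteins and matrix proteases tested, 12 were lower and 2 higher, with a median of -0.43, and 9 lower and 3 higher with the length offset. Leaving out replicate 1, 2 or 3 left 4, 5 or 13 lower. Thbs1 (thrombospondin-1), an adhesive glycoprotein that binds CD47 and αvβ3 and inhibits blood vessel growth, fell from 505, 771 and 654 CPM to 106, 232 and 98.2 CPM without overlap (-2.24, SE 0.2, edgeR adjusted p = 0.00298). Tgfbi, a secreted integrin ligand induced by TGF-β, fell from 194, 221 and 221 to 96.3, 119 and 90.9 CPM (-1.06, SE 0.14, adjusted p = 0.00418). Ecm1 (-1.59), the coagulation genes F13a1 (-1.41) and F7 (-0.99), and Mmp14 (-0.96), a membrane-bound protease of podosomes, were lower as well. The 2 higher members were the secreted proteases Mmp12, a macrophage elastase, and Mmp13, a collagenase. Mmp12 rose from 2980, 3040 and 4980 to 3780, 9310 and 16200 CPM (1.23, SE 0.28, adjusted p = 0.0237), with overlap between the groups. Mmp13 rose from 45.2, 39.4 and 26.2 to 67.1, 98.2 and 73.5 CPM without overlap (1.13, SE 0.2, adjusted p = 0.0101). The calls of Thbs1, Tgfbi and F7 held with each replicate left out, those of Ecm1, Mmp12 and Mmp13 were lost without replicate 2, and those of F13a1 and Mmp14 without replicate 1.

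Of 31 cytokines and growth factors tested, 5 were lower and 1 higher. Vegfa, the main factor for blood vessel growth, fell from 109, 143 and 132 to 31.4, 86.7 and 42.9 CPM, with every cKO library below every CD18fl/fl library (-1.38, SE 0.22, edgeR adjusted p = 0.00717). Gdf15, a stress-induced member of the TGF-β family, fell from 7.37, 8.64 and 88.7 to 1.79, 3.33 and 29.3 CPM (-1.65, SE 0.19, adjusted p = 0.00318). Its replicate 3 was the highest in both genotypes. Tgfb1 (-0.74), Osm (-0.68) and Csf1 (-0.7) were the other lower members. The single higher member was Il1b, a product of activated myeloid cells, which rose from 61.4, 61.1 and 11.9 to 117, 74.2 and 26.3 CPM (0.78, SE 0.19, adjusted p = 0.0282). With the length offset its adjusted p was 0.261.

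Several chemokines were higher in cKO BMDCs in the main fit, fewer with the length offset or without replicate 2. Ccl17, which attracts CCR4-bearing T cells, rose from 52.4, 15.2 and 108 CPM in CD18fl/fl to 509, 141 and 2710 CPM in cKO (3.71, SE 0.3, edgeR adjusted p = 0.00298; 2.87 with the length offset). Libraries of 1 genotype differed several-fold among themselves, but the lowest cKO library was above the highest CD18fl/fl library. Ccl9, a ligand of CCR1, rose from 850, 740 and 1940 to 1660, 2100 and 8070 CPM (1.51, SE 0.22, adjusted p = 0.00563). Of 19 chemokines tested, 6 were higher (Ccl2, Ccl4, Ccl6 and Ccl7 beside those named) and 1 lower, beside 12.1% and 8.16% of all genes. Under library size scaling the median of this list turned from 0.2 to -0.2, where that of all genes went from -0.07 to -0.46. With the length offset 2 were higher and 3 lower, beside 8.34% and 4.45% of all genes, and the list's median was -0.14. Without replicate 1, 2 or 3 there were 6, 1 and 5 higher members. The lower member in the main fit was Cx3cl1, a membrane-bound chemokine, with 46.2, 60.4 and 23.5 against 25.1, 26.1 and 14.2 CPM (-0.94, SE 0.16, adjusted p = 0.00877). Of 18 chemokine receptors 2 were higher and 2 lower (11.1% each, near the shares of all genes). Ccr1, which binds Ccl9 and Ccl6, was higher without overlap, at 597, 538 and 585 against 1170, 1190 and 805 CPM (0.86, adjusted p = 0.0151), and Cxcr4, the receptor of CXCL12, was higher with 0.81 (adjusted p = 0.017; 0.0591 with the offset).

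Of 28 costimulation and maturation genes, 4 were higher and 4 lower (14.3% each, beside 12.1% and 8.16% of all genes). With the length offset there were again 4 and 4. Without replicate 1, 2 or 3 there were 2, 2 and 8 higher and 2, 2 and 5 lower. Cd86, a ligand of the T cell receptors CD28 and CTLA-4, rose from 213, 169 and 220 to 561, 353 and 403 CPM without overlap (1.11, SE 0.15, edgeR adjusted p = 0.00437). Cd83, which marks mature dendritic cells and stabilizes surface MHC II, rose in each pair, from 955, 672 and 232 to 2130, 1360 and 316 CPM (0.87, SE 0.18, adjusted p = 0.0159). Vsir (VISTA), a ligand that dampens T cells, fell from 199, 214 and 102 to 74.1, 116 and 55.7 CPM (-1.06, SE 0.16, adjusted p = 0.00623). H2-Ab1, a β chain of MHC II, the molecule used to isolate the cells, rose from 7050, 7180 and 4880 to 14800, 10900 and 9200 CPM (0.86, SE 0.18, adjusted p = 0.0177). With the length offset H2-Ab1 did not pass (0.4, adjusted p = 0.208), and it was the single called gene among 22 of MHC II presentation. Aldh1a2, the enzyme with which dendritic cells make retinoic acid, rose from 13.9, 8.31 and 20.3 to 42.9, 15.4 and 89.8 CPM (1.56, SE 0.24, adjusted p = 0.00634). The calls of Ccl17, Cd86, Vsir and Aldh1a2 held with each replicate left out. Those of Ccl9, Cx3cl1, Cxcr4, Ccr1, Cd83 and H2-Ab1 were lost without replicate 2, and of these Cxcr4, Ccr1, Cd83 and H2-Ab1 also without replicate 1. Il1b lost its call without replicate 1.

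Of 25 NF-κB subunits and inhibitors, 2 were higher and 5 lower, and with the length offset 3 and 3. Tnip3 (ABIN-3), an inducible partner of the inhibitor A20, rose from 167, 147 and 80 to 409, 348 and 365 CPM without overlap (1.57, SE 0.21, edgeR adjusted p = 0.00386). Tank, an adaptor that restrains TRAF signaling, rose from 119, 89 and 76.8 to 227, 238 and 139 CPM (1.07, SE 0.16, adjusted p = 0.00579). Rela, the p65 subunit, fell from 66.5, 80.7 and 37.5 to 37.8, 44 and 29 CPM (-0.69, SE 0.16, adjusted p = 0.0234). Tnfaip3, the gene of A20 itself, fell from 96.6, 106 and 30.5 to 58.1, 68.8 and 22.6 CPM (-0.6, SE 0.14, adjusted p = 0.0256), and Ikbkg, Ikbke and N4bp1 were the other lower members. The calls of Rela and Tnfaip3 were lost without replicate 1 and without replicate 2, while those of Tnip3 and Tank held with each replicate left out.

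The COMMD proteins form, with CCDC22 and CCDC93, the Commander complex that returns membrane proteins, integrins among them, from endosomes to the surface, and COMMD1 restrains NF-κB. Of these 12 genes 7 were higher and 0 lower, with a median of 0.7, which stayed positive at 0.3 under library size scaling. With the length offset 5 were higher, and without replicate 1, 2 or 3 there were 3, 3 and 9. Commd2 rose most, from 43.5, 35.4 and 34.1 to 146, 127 and 114 CPM (1.78, SE 0.14, adjusted p = 0.00298 by edgeR). Commd6 rose from 66.9, 60.2 and 58.4 to 135, 152 and 118 CPM (1.12, SE 0.14, adjusted p = 0.00376). Commd3 rose from 130, 103 and 150 to 267, 257 and 262 CPM (1.05, SE 0.15, adjusted p = 0.00513). In these 3 genes the cKO libraries were all above the CD18fl/fl libraries, and their calls held with each replicate left out, but with the length offset Commd3 gave 0.47 and did not pass (adjusted p = 0.0674). Ccdc22 and Ccdc93 did not pass the test (0.28 and 0.25, adjusted p = 0.21 and 0.285).

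Genes of Toll-like receptor signaling were lower where they passed the test: 8 of 33 were lower and 0 higher, with a median of -0.42. With the length offset 5 were lower, and without replicate 1, 2 or 3 there were 2, 1 and 12. Wdfy1, an endosomal adaptor of TLR3 and TLR4, fell from 42.7, 20.9 and 26.1 to 5.22, 5.07 and 6.36 CPM (-2.37, SE 0.24, edgeR adjusted p = 0.00298), and all 3 cKO libraries were within a narrow range below the CD18fl/fl libraries. Wdfy1 also stood in a list of 6 genes known to differ between C57BL/6 substrains, of which 3 were tested. Ide, another of these, measured 26.5, 41.9 and 57.9 against 22.7, 21.6 and 32.3 CPM (-0.67, adjusted p = 0.0389; not called without replicate 2 or 3), and Entpd4 10.9, 15.5 and 9.81 against 11.4, 10.3 and 9.66 CPM (-0.19, adjusted p = 0.586). The part of strain background was not tested. Tlr7, which senses single-stranded RNA, fell from 34.7, 36.7 and 14 to 12.7, 21.8 and 8.45 CPM (-0.97, SE 0.2, adjusted p = 0.0159), and Tlr2 (-0.8), Tlr13 (-0.76), Irak3 (-0.81), Irak1 (-0.7), Irak2 (-0.58) and Tab2 (-0.54) were the other lower members. The call of Wdfy1 held with each replicate left out, and that of Tlr7 was lost without replicate 1 and without replicate 2.

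Receptors for growth factors and cytokines gave 12 lower and 1 higher of 37 tested (6 and 2 with the length offset, and 4, 1 and 15 lower without replicates 1, 2 and 3). Csf3r, the G-CSF receptor, fell from 12.1, 15.3 and 2.03 to 1.67, 4.31 and 0.294 CPM (-2.44, SE 0.34, edgeR adjusted p = 0.00471). It is also a neutrophil marker, and 3 of 13 neutrophil markers tested were lower: Csf3r, Mmp8 (-0.78) and Lcn2. Lcn2, an iron-siderophore binding protein, measured 75.9, 6.72 and 16.6 against 4.11, 3.94 and 0.914 CPM (-3.08, SE 0.67, adjusted p = 0.0199), and S100a8, a defining neutrophil gene, measured 484, 40.9 and 8.7 against 96.8, 92.7 and 8.81 CPM (-0.35, adjusted p = 0.713). Over the whole list 12 of the 13 differences were negative, with a median of -0.78 (-2.05 without the block), and without replicate 3, 7 of 17 were lower with a median of -1.57. The part of neutrophil transcripts in these falls was not tested. Tnfrsf1a, the widely expressed TNF receptor, fell from 68.8, 79.2 and 53.5 to 39.1, 41.4 and 32.8 CPM without overlap (-0.82, SE 0.14, adjusted p = 0.00872), and its inducible relative Tnfrsf1b fell with -1.01 (adjusted p = 0.00877). Csf1r (-0.88), Flt3 (-1.34), Il6st (-0.83), Csf2rb (-0.55) and Il4ra (-0.59) were lower too. Il18r1, a chain of the IL-18 receptor, was the higher member, at 37.5, 33.9 and 15.9 against 88.5, 52.8 and 27.3 CPM (0.89, SE 0.16, adjusted p = 0.0117). The calls of Csf3r and Lcn2 held with each replicate left out, those of Tnfrsf1a and Il18r1 were lost without replicate 1, and those of Tnfrsf1a and Tnfrsf1b without replicate 2.

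Of 17 complement genes 4 were higher and 5 lower, and with the length offset 1 and 4. C5ar1, the receptor of C5a, fell from 27.8, 54 and 21.4 to 12.2, 34 and 8.16 CPM (-1.08, SE 0.19, edgeR adjusted p = 0.00925). Cd93, a C1q-binding lectin-like receptor, fell from 41, 62.8 and 171 to 17.3, 33.2 and 52.1 CPM (-1.29, SE 0.18, adjusted p = 0.00485). C1qb, a chain of C1q, rose from 446, 398 and 419 to 690, 622 and 866 CPM (0.77, SE 0.15, adjusted p = 0.0136), but not with the length offset (0.25, adjusted p = 0.346) or without replicate 2. Among C-type lectin and scavenger receptors 6 of 30 were higher and 3 lower. Clec7a (dectin-1), which binds fungal β-glucan, rose from 766, 652 and 191 to 1220, 2330 and 605 CPM (1.4, SE 0.23, adjusted p = 0.00835), and its call was lost without replicate 2.

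Of 25 SOCS and JAK-STAT genes, 6 were lower and 1 higher, and with the length offset 1 and 1. Socs3, which blocks JAK kinases at the IL-6 receptor, fell in each pair, from 26, 26.8 and 154 to 15.5, 10.9 and 104 CPM (-0.87, SE 0.18, edgeR adjusted p = 0.0165). Replicate 3 was several-fold above the others in both genotypes, and the call was lost without replicate 2 (adjusted p = 0.0882). Socs2 measured 116, 95 and 167 against 112, 93.9 and 181 CPM (0.02, adjusted p = 0.934) and Socs4 16.2, 12.8 and 16.8 against 14.2, 20.1 and 14.9 CPM (0.1, adjusted p = 0.792). Of 52 genes of the type I interferon response 8 were higher and 0 lower, near the share of all genes. The largest was Ifi27l2a, an interferon-induced mitochondrial protein, with 170, 106 and 11.7 against 416, 333 and 98.4 CPM (1.98, SE 0.32, adjusted p = 0.00727; 1.1 and adjusted p = 0.0517 with the length offset). Without replicate 3 this list gave 5 higher and 6 lower.

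Of 46 cell death and survival genes 11 were higher and 5 lower, and 9 and 0 with the length offset. The Bcl2a1 genes encode A1, a BCL2 relative that keeps myeloid cells alive. Bcl2a1d measured 452, 312 and 206 CPM in CD18fl/fl and 1560, 1130 and 668 CPM in cKO (1.78, SE 0.14, edgeR adjusted p = 0.00298), and Bcl2a1a 321, 204 and 134 against 953, 727 and 444 CPM (1.71, SE 0.14, adjusted p = 0.00298). They gave 1.14 and 1.05 with the length offset (adjusted p = 0.0068 and 0.00712). These copies are near-identical, so that the split of reads among them is uncertain, but all those named rose without overlap and with each replicate left out. Ripk1, a kinase that directs TNF receptor signals towards survival or death, fell from 64.4, 51.9 and 42.2 to 34.1, 34.9 and 26.1 CPM (-0.73, SE 0.14, adjusted p = 0.0148). It did not pass with the length offset (adjusted p = 0.0994), without replicate 1 or without replicate 2.

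Genes of protein production and quality control beyond the ribosome were examined as 5 lists. Their medians under library size scaling are to be read beside that of all genes, which went from -0.07 to -0.46. Of 38 proteasome genes 22 were higher and 0 lower (median 0.59; 0.19 under library size scaling), and 10 and 2 with the length offset. Psma5, a 20S core subunit, rose from 169, 133 and 170 to 369, 351 and 378 CPM without overlap (1.23, SE 0.14, edgeR adjusted p = 0.00318; with the offset 0.81, adjusted p = 0.0123). Of 34 genes of mitochondrial import 16 were higher and 1 lower (median 0.5; 0.11 under library size scaling), and 14 and 2 with the offset. Timm8b, a chaperone of the intermembrane space, rose from 51.6, 39.9 and 95.8 to 158, 135 and 253 CPM without overlap (1.59, SE 0.14, adjusted p = 0.00298; with the offset 0.75, adjusted p = 0.0214). Of 45 protein folding genes 14 were higher and 0 lower (median 0.26, and -0.13 under library size scaling), and 9 and 1 with the offset. Dnajc15, a co-chaperone of the inner mitochondrial membrane, rose from 133, 103 and 114 to 326, 327 and 319 CPM (1.48, SE 0.14, adjusted p = 0.00298). With the offset it gave 1.78 (adjusted p = 0.00428).

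Of 57 genes of the spliceosome core and its small nuclear ribonucleoproteins, 23 were higher and 3 lower, and 17 and 5 with the length offset. Their median was 0.35, and -0.04 under library size scaling, where all genes had -0.07 and -0.46. Snrpg, a small protein of the Sm ring, rose from 147, 113 and 149 to 378, 338 and 422 CPM (1.48, SE 0.14, edgeR adjusted p = 0.00298), while the large helicase Snrnp200 fell from 47.8, 71.4 and 61.3 to 26.7, 34.2 and 39.2 CPM (-0.85, SE 0.15, adjusted p = 0.00983). With the offset these gave 0.94 (adjusted p = 0.00856) and -0.54 (adjusted p = 0.0454). Of 53 translation factors 22 were higher and 7 lower (median 0.32, and -0.07 under library size scaling), and 17 and 4 with the offset. Eif2s1, the regulated α subunit of the factor that delivers the initiator tRNA, rose from 116, 111 and 161 to 265, 253 and 328 CPM (1.14, SE 0.13, adjusted p = 0.00318), whereas the large scaffold Eif3c fell from 112, 128 and 134 to 70, 65.2 and 87.2 CPM (-0.76, SE 0.14, adjusted p = 0.0127).

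Without replicate 1, 2 or 3 the proteasome list had 14, 8 and 27 higher members, mitochondrial import 10, 7 and 20, protein folding 9, 3 and 19, the spliceosome 16, 13 and 23, and translation factors 12, 5 and 24. Psma5, Timm8b, Dnajc15, Snrpg and Eif2s1 were called in all 3 of these fits, whereas Snrnp200 and Eif3c were not called without replicate 2, nor Eif3c without replicate 1. The endoplasmic reticulum genes Manf and Dnajb9, induced when proteins misfold there, were higher without overlap. Manf rose from 123, 107 and 158 to 236, 245 and 380 CPM (1.14, SE 0.14, edgeR adjusted p = 0.00343). The chaperone Hyou1 of the same compartment fell from 60.6, 77.8 and 154 to 42.4, 40.9 and 96.8 CPM (-0.7, SE 0.15, adjusted p = 0.0178), which did not pass with the length offset or without replicate 1 or 2, and the stress response list as a whole had 5 of 38 higher and 5 lower. Trib3, a target of ATF4, measured 1.96, 2.06 and 70.1 against 0.598, 0.492 and 17.8 CPM (-1.93, adjusted p = 0.00314), and without replicate 3 it lost its call (adjusted p = 0.166).

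Chromatin and histone modifiers, with a median exon length of 8101.5 bases, were lower where they passed the test with 1 exception: of 78 tested, 21 were lower and 1 higher, with a median of -0.53. With the length offset 2 were lower and 0 higher, so that this list's calls did not hold once length entered the fit. Kdm7a, a histone demethylase, fell from 33, 32.7 and 35.4 to 16.7, 17.9 and 17.9 CPM (-0.94, SE 0.15, edgeR adjusted p = 0.00705) and was lower with the offset too (-0.61, adjusted p = 0.0399). Without replicate 1, 2 or 3 the list had 3, 1 and 26 lower members, and Kdm7a was called each time.

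Transcription factors of the dendritic cell lineage were lower in 7 and higher in 2 of 40, and with the length offset in 3 and 0. Notch2, which guides the development of splenic dendritic cells, fell from 38.9, 49.2 and 53 to 18.9, 22.8 and 32.7 CPM (-0.95, SE 0.15, edgeR adjusted p = 0.00771). Cebpa, a factor of granulocyte and macrophage development, fell from 56.8, 84.6 and 53.9 to 29.2, 39.5 and 36 CPM (-0.88, SE 0.16, adjusted p = 0.0102). In both the groups did not overlap. Batf3, required for cross-presenting dendritic cells, rose in each pair (0.72, adjusted p = 0.0215) but gave 0.05 (adjusted p = 0.872) with the length offset. All 3 lost their calls without replicate 2, and Cebpa also without replicate 1.

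Single metabolic genes changed in either direction. Gatm, which makes the creatine precursor guanidinoacetate, rose from 9.97, 6.67 and 11.9 to 56.9, 82 and 39.6 CPM without overlap (2.61, SE 0.33, edgeR adjusted p = 0.00374). Among 38 genes of the antioxidant response 11 were higher and 4 lower, and 4 and 6 with the length offset. Gsr, which regenerates reduced glutathione, fell from 46.3, 51 and 71.2 to 21.2, 23.5 and 30.7 CPM (-1.15, SE 0.14, adjusted p = 0.00324), while the peroxide-removing Prdx2 rose from 458, 373 and 335 to 915, 815 and 572 CPM (0.97, SE 0.14, adjusted p = 0.00568) and the selenoprotein Selenoh from 40, 24.9 and 34 to 104, 67.9 and 122 CPM (1.55, SE 0.16, adjusted p = 0.00298). Cyba, a membrane subunit of the phagocyte NADPH oxidase, was higher (1.14, adjusted p = 0.00751) and its cytosolic partner Ncf1 lower (-0.52, adjusted p = 0.0418), and with the offset neither passed (adjusted p = 0.113 and 0.0694). Slc11a1 (NRAMP1), which pumps iron out of phagosomes, fell from 59.3, 88.4 and 46.5 to 19.2, 44 and 31.4 CPM (-1.06, SE 0.21, adjusted p = 0.0144).

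Of 64 lysosome and endosome genes 9 were higher and 9 lower (14.1% each, beside 12.1% and 8.16% of all genes). Csta2, a cysteine protease inhibitor of the stefin family, rose from 32.7, 14 and 85.6 to 207, 67.2 and 280 CPM (2.21, SE 0.2, edgeR adjusted p = 0.00298; 1.45 with the length offset), in each pair but with overlap between groups. It is 1 of several near-identical stefin A copies, so that its share of their reads is uncertain. Npc1, which moves cholesterol out of lysosomes, fell from 49.2, 73.4 and 117 to 24.8, 40.9 and 64.5 CPM (-0.9, SE 0.14, adjusted p = 0.00634). In cholesterol synthesis 4 of 27 were higher (14.8%, near the 12.1% of all genes) and 0 lower, and 4 and 0 with the length offset. The number of higher members was 1, 0 and 5 without replicates 1, 2 and 3. The median was 0.14, and -0.26 under library size scaling, where all genes had -0.07 and -0.46. Idi1, an isoprenoid isomerase, was 1 of the higher members, at 543, 374 and 147 against 1080, 724 and 261 CPM (0.92, SE 0.13, adjusted p = 0.0054). Nr1h2 (LXRβ), a sterol-sensing receptor, fell from 65.7, 62.8 and 41.2 to 29.4, 29.8 and 30.7 CPM (-0.89, SE 0.18, adjusted p = 0.0161). Of 41 glycolysis and hypoxia genes 6 were lower (14.6%, beside 8.16% of all genes) and 1 higher, and 2 and 1 with the length offset. The number of lower members was 0, 2 and 5 without replicates 1, 2 and 3. Of this and the preceding paragraph Gatm, Gsr, Selenoh, Csta2 and Npc1 were called with each replicate left out, and Prdx2, Idi1, Nr1h2, Slc11a1, Cyba and Ncf1 were not called without replicate 2, nor Nr1h2, Slc11a1 and Ncf1 without replicate 1.

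Of 50 DNA replication and repair genes 13 were higher and 0 lower, with 39 positive differences and a median of 0.6 that fell to 0.16 without replicate 3. Of 58 mitosis genes 9 were higher (15.5%) and 1, Kpna2, lower, with 51 positive differences and a median of 1. That median fell to 0.19 without replicate 3, so that the size of both medians came mostly from that pair. The calls did not: without replicate 1, 2 or 3 there were 12, 3 and 12 higher replication genes. For mitosis genes these counts were 9, 2 and 8. Mad2l1, a spindle checkpoint protein, rose from 31.1, 25.9 and 23 to 81.5, 51 and 143 CPM (1.66, SE 0.3, edgeR adjusted p = 0.0104) and was called with each replicate left out. Pclaf, a PCNA-associated factor, rose from 31.4, 11.2 and 7.12 to 101, 34.4 and 135 CPM (2.46, SE 0.49, adjusted p = 0.0151), and was not called without replicate 2 (adjusted p = 0.0507). The proliferation-associated genes Mxd3 (2.66), Pbk (2.22), Shcbp1 (2.04), Cenpq (2.04) and Ccne2 (1.98) were among the largest rises, each with non-overlapping libraries, and of these Mxd3 alone kept its call without replicate 2.

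Further large changes included genes of other functions. Ppp1r1a, a protein phosphatase inhibitor, rose from 2.26, 0.905 and 0.48 to 10.2, 5.98 and 6 CPM (2.8, SE 0.4, edgeR adjusted p = 0.00531). Cd300e, an activating receptor of myeloid cells, rose from 5.94, 1.23 and 1.7 to 19, 7 and 32.5 CPM (2.78, SE 0.47, adjusted p = 0.00858). Slc36a3, an amino acid transporter family member, rose with 2.73 (adjusted p = 0.00852) and Gimap6, a GTPase of lymphoid and myeloid cells, with 2 (adjusted p = 0.0084). Mtus1 (-1.78), the inositol phosphatase Inpp5j (-1.85), Tanc2 (-1.62), the secreted follistatin-like Fstl1 (-1.57) and the cAMP phosphodiesterase Pde4a (-1.49) fell, all with non-overlapping libraries and at low levels, of which the highest was 15.1 CPM in Fstl1. Without replicate 2 the calls of Cd300e, Inpp5j, Tanc2 and Pde4a were lost, and without replicate 1 those of Inpp5j and Pde4a. Plcb4, a phospholipase C of the Src and Syk list, had 0, 1 and 0 reads in CD18fl/fl, at or under the floor of 3, and 35, 32 and 117 reads in cKO (1.4, 1.21 and 3.82 CPM, adjusted p = 0.00925), so that no fold is given.

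Kpna2, the importin α1 that carries cargo into the nucleus, had 2623, 2116 and 1660 reads in CD18fl/fl and 13, 476 and 127 in cKO, and the predicted gene Gm10184 had 0, 0 and 62 reads in CD18fl/fl and 3075, 1419 and 3303 in cKO. Where the reads of 1 gene were high, those of the other were low. Added together, the reads were 2623, 2116 and 1722 in CD18fl/fl and 3088, 1895 and 3430 in cKO, with a log2 difference of 0.71 (SE 0.19, edgeR adjusted p = 0.0373), where Kpna2 alone gave -3.7 (SE 0.85, adjusted p = 0.0232). A fall of the Kpna2 transcript can thus not be told from a move of its reads to the other gene. With uniquely assigned reads alone Kpna2 still gave -2.75, so that its difference was not confined to ambiguous reads. Of the other predicted genes under the same criteria, Gm3055 (3.03) and Gm6710 (2.23) were higher and Gm38431 (-1.5) and 2510039O18Rik (-0.8) lower. None of these 4 was called without replicate 2.

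The 6 LPS-treated libraries offer the same genotype comparison in libraries outside the fit above. Same-numbered ones may come from the same cultures, and the lists and genes were chosen with results of the whole series known, so this is no independent test. Of the 147 genes called above under the naming rules (79 higher, 68 lower), 146 were tested there. With the block, 72 were called in the same direction and 0 in the opposite one, beside 6.98% of 12441 genes called higher and 3.16% called lower in those libraries, and 142 had the same sign. Leaving out replicate 1 or 2 reduced the 72 to 2 or 35. Itgb2 measured 151, 155 and 246 CPM in CD18fl/fl and 101, 79.6 and 109 CPM in cKO with LPS (-0.91, edgeR adjusted p = 0.0201). Ccl17 (1.82), Gatm (2.15), Cd86 (1.33), Commd2 (1.42), Thbs1 (-1.59), Wdfy1 (-2.64), Fos (-1.36) and Itgb3 (-1.52) were among those called in both, while Tgfbi (-0.22, adjusted p = 0.754), Dusp6 (-0.18, adjusted p = 0.789) and Aldh1a2 (0.13, adjusted p = 0.823) were not called with LPS. That difference was tested by the interaction of genotype and LPS over all 12 libraries, in which edgeR called 0 of 13752 genes (272 at an unadjusted p under 0.05, of which 3 are named here). Without replicate 3 it called 1 of 13789 genes. In that fit 1216 genes had an unadjusted p under 0.05 by the same edgeR test, among them 39 of the 151 named genes. Hence in the fit over all 12 libraries no named gene was shown to differ in its genotype effect between untreated and LPS-treated BMDCs.

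**Figure D4:**
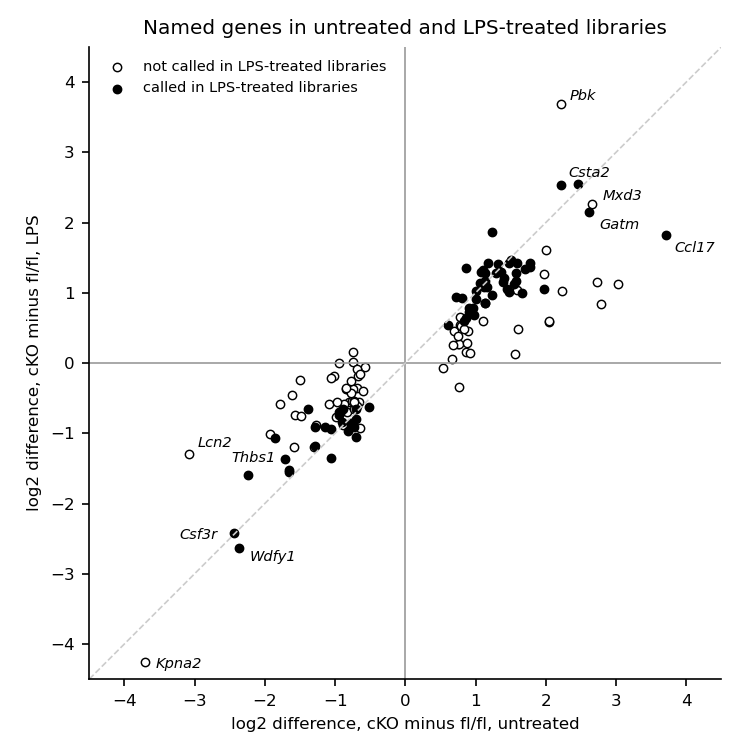
Log2 difference (cKO minus CD18fl/fl) in untreated (x axis) and LPS-treated (y axis) libraries for 144 of the 146 named genes, leaving out 2 past the axis limits. Filled points were called in the LPS-treated libraries as well, and the dashed line marks equal values. Points lie in the lower left and upper right with few exceptions, such as C1qb at 0.77 and -0.34. Ccl17, in the upper right, lies at 3.71 and 1.82.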

How the data were processed

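BMDC libraries were compared as 3 untreated CD18CD11c cKO against 3 untreated CD18fl/fl, grouped by their labels. The authors aligned the reads and deposited counts per gene, made with CLC Genomics Workbench 22.0. The genome build is GRCm39 in the study's methods and GRCm38 in the labels, and positions printed here come from GRCm39 alone. The total gene reads of each file, raw counts as deposited, were used as they stood, for 41709 genes, with 29689149 to 32323263 reads per untreated library. A floor of 3 reads covers counting error only.

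Genes were filtered with filterByExpr (minimum count 10), scaled by TMM and tested with edgeR 4.0.16 (R 4.3.3) by the quasi-likelihood test on genotype with the replicate number as a block, adjusted by Benjamini-Hochberg across the whole table at a threshold of 0.05. Same-numbered libraries deviated together from their group means (correlations 0.477, 0.421 and 0.743). For replicate 3 the correlation with other numbers was -0.598 to -0.507, and between replicates 1 and 2 it was 0.338 and 0.361. No label states what the number stands for. The gene length offset was a lowess curve (span 0.3) of log counts on exon length in each library, removed before the fit. Alternatives were no block, DESeq2 1.42.0, other scalings and filters, uniquely assigned reads, all 12 libraries together, and leaving out libraries. The steps were tested on simulated data.

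Genes were named by rule: β2 integrin subunits, the 12 largest rises and falls with non-overlapping libraries that also held with the length offset (mean of at least 5 CPM in the higher genotype), up to 3 predicted genes in each direction, the 2 called members of smallest p in each direction of each function list, and genes the study names. Members named beyond the rule were picked with their values in view. The gene lists and the members were chosen with earlier results of these data known, so the lists are described by counts and medians with no test.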

Additional observations from a re-analysis of the deposited data

How the results depend on the processing

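The number of calls depended on the replicate block. The block gave 1555 higher and 1051 lower genes. Without it edgeR called 0 and 0, DESeq2 called 491 and 47, and leaving out any single library without the block gave 0 and 0. Library size scaling gave 701 and 3882, the length offset 1021 and 544, and 1 fit over all 12 libraries 678 and 437. Over the fits with libraries left out, the counts ran from 0 to 1943 for higher and from 0 to 1544 for lower genes (837 and 171 without replicate 1, 386 and 65 without replicate 2). The cause was not tested. DESeq2 with the block, RLE scaling, uniquely assigned reads and other filters kept both counts within 1.5 times. Itgb2 stayed lower in every fit, with -1.26 without the block (edgeR adjusted p = 0.0887) and -1.45 to -1.11 with libraries left out. Leaving out 1 library without the block, it gave -1.28, -1.21 and -1.31 without CD18fl/fl replicates 1, 2 and 3 and -1.11, -1.31 and -1.4 without those of cKO. Of 151 named genes 147 lost their call without the block, and 34 with the length offset. Itgax changed sign to 0.27 without the block, 0.25 with DESeq2 without the block, 0.14 with the length offset, and ranged from -0.9 to 0.78 with libraries left out. It gave 0.09, 0.2 and -0.37 without replicates 1, 2 and 3, and, with no block, 0.03, 0.11 and 0.78 without CD18fl/fl replicates 1, 2 and 3 and 0.6, 0.59 and -0.9 without those of cKO. Without CD18fl/fl replicate 3 and without the block, Gdf15 (0.53), Socs3 (0.72), Cd33 (0.1) and Trib3 (1.65) changed sign. Of the genes called again with LPS, 72 in all, 0 remained without the block, and 2, 35 or 66 without replicate 1, 2 or 3. Adding the reads of Kpna2 and Gm10184, an alternative chosen after seeing the data, turned Kpna2 from -3.7 to 0.71.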

Other observations

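Src and Syk signaling, the pathway of ITAM adaptors below integrins, had 2 higher and 7 lower genes of 34 (1 and 2 with the length offset). Tyrobp (DAP12), an ITAM adaptor of myeloid receptors, measured 1070, 876 and 1040 CPM in CD18fl/fl and 1680, 2070 and 1770 CPM in cKO, without overlap (log2 0.88, SE 0.17, edgeR adjusted p = 0.0127), but gave 0.14 (adjusted p = 0.585) with the offset. Vav1, an exchange factor for Rac that acts below Syk, fell from 48.5, 49.7 and 46.9 to 28.9, 22.7 and 34.7 CPM without overlap (-0.77, SE 0.17, adjusted p = 0.0216; -0.75 and 0.0268 with the offset). Among 31 Fc and inhibitory receptors 2 were higher and 2 lower. The inhibitory Fcgr2b fell from 153, 191 and 240 to 83.5, 139 and 123 CPM (-0.77, SE 0.15, adjusted p = 0.0149), and the activating Fcgr1 rose in each pair from 184, 123 and 63.6 to 205, 212 and 132 CPM (0.67, SE 0.19, adjusted p = 0.0433). The calls of Tyrobp, Vav1 and Fcgr1 were lost without replicate 2, those of Vav1 and Fcgr2b without replicate 1, and that of Fcgr1 without replicate 3.

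In MHC class I processing 5 genes were higher and 4 lower of 23, and 2 and 6 with the length offset. The immunoproteasome subunit Psmb9 rose in each pair, from 211, 176 and 113 to 360, 300 and 185 CPM (0.75, SE 0.13, edgeR adjusted p = 0.00924). Tapbp (tapasin), which loads peptides onto class I molecules, fell from 209, 259 and 248 to 110, 150 and 189 CPM without overlap (-0.7, SE 0.15, adjusted p = 0.0199). Both lost their calls without replicate 1 and without replicate 2. In lipid handling 4 of 50 were higher and 4 lower. Acsl5, which activates fatty acids, rose from 143, 121 and 107 to 238, 183 and 202 CPM (0.75, SE 0.14, adjusted p = 0.0114), and Pla2g15, a lysosomal phospholipase, fell from 51, 63.3 and 61.9 to 20.7, 24.7 and 49.9 CPM (-0.99, SE 0.22, adjusted p = 0.022). Neither Acsl5 nor Pla2g15 was called without replicate 1 or without replicate 2. Iron handling genes gave 3 higher and 5 lower of 31.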
